A study of Mus musculus with 8 samples.

Results

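The genotype by doxorubicin interaction of each gene is the doxorubicin effect in staggerer fibroblasts minus the doxorubicin effect in wild type fibroblasts, (Sg Dox+ minus Sg Dox-) minus (WT Dox+ minus WT Dox-), on the log2 scale. It was computed from all 8 arrays of the study for every gene with a probe above background, 1 probe per gene, which gave 9340 of the 18312 genes and unnamed probes on the array. A gene is called higher in the interaction where the staggerer change lay above the wild type change, and lower where it lay below, at a limma adjusted p under 0.05. Messenger RNA was measured on Illumina bead arrays in mouse embryonic fibroblasts of the C57BL/6J background, grown in serum-containing medium. Sg Dox+ cells carried the staggerer mutation, a deletion within Rora, and had 12 h of doxorubicin. Sg Dox- cells carried the same mutation and were untreated. WT Dox+ cells were wild type with 12 h of doxorubicin, and WT Dox- cells were wild type and untreated. Each group had 2 arrays, and no source used here gives the dose of doxorubicin. No label tells if the paired arrays come from different cultures; p-values therefore cover the array-to-array spread alone, possibly a technical one. Nor do the labels say how many embryos or isolates stand for a genotype, so genotype and isolate cannot be told apart.

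Doxorubicin is an anthracycline that traps topoisomerase II on DNA and leaves DNA breaks. Broken DNA activates the kinases ATM and ATR, which stabilise the transcription factor p53, and p53 switches on genes of cell cycle arrest, repair and death. Doxorubicin also slides between DNA bases and can slow transcription. Rora encodes RORα, a nuclear receptor that binds AGGTCA motifs and activates clock and metabolic genes. Staggerer mice lack its ligand-binding region and have a small cerebellum.

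The Sg Dox+ arrays stood apart from the other arrays in signal. Probes above background numbered 9576 and 9246 in Sg Dox+ cells, 10986 and 10942 in Sg Dox- cells, 11341 and 11572 in WT Dox+ cells and 11154 and 11059 in WT Dox- cells. The median log2 signal after background correction was 7.64 and 7.55 in Sg Dox+ cells and ranged between 8.61 and 9.11 on the other arrays. Every interaction value rests on the Sg Dox+ arrays, so genes undetected on both of them, 1763 of 9340, are marked below, and their signal there is a bound. In bulk RNA, fewer cells of a type and less RNA per cell cannot be told apart. Rora was measured by a probe whose position relative to the deletion was not determined, so its level checks no label. Its log2 signal was 6.57 and 6.25 in Sg Dox+ cells, 6.58 and 6.56 in Sg Dox- cells, 7.99 and 7.92 in WT Dox+ cells and 7.72 and 8.08 in WT Dox- cells, where it was above background on 0 of the Sg Dox+ arrays, and its interaction did not pass (-0.22 ± 0.23 SE, adjusted p = 0.447).

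Of the 9340 genes tested, 2489 (26.6%) were higher and 3036 (32.5%) were lower in the interaction (59.2% called in either direction), and 3815 did not pass. A change of at least 2-fold was seen in 1606 of the higher and 2180 of the lower genes. Among the 6472 genes detected on all 8 arrays, 2087 were higher and 1978 lower. Of the 1763 genes undetected on both Sg Dox+ arrays, 76 were higher and 839 lower. In the separate effects, 2977 genes (31.9%) rose and 3099 (33.2%) fell with doxorubicin in Sg cells, and 2467 (26.4%) rose and 2847 (30.5%) fell in WT cells. The effects of the genotypes share no array, and across the 9340 genes, which are not independent replicates, they correlated with Pearson's r of 0.38 and Spearman's rho of 0.30.

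The genes that were lower in the interaction divided by how each genotype moved. The largest share, 967 genes, fell in Sg cells without passing in WT cells, and 634 rose in WT cells without passing in Sg cells. A further 496 genes fell in Sg and rose in WT cells, 486 fell in both genotypes and more deeply in Sg, 410 rose in both and less in Sg, and 43 passed in neither genotype alone. Of the genes that were higher, 906 rose in Sg cells without passing in WT cells, 669 rose in Sg and fell in WT cells, and 604 fell in WT cells without passing in Sg cells. Another 146 fell in both and less in Sg, 100 rose in both and more in Sg, and 64 passed in neither.

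**Figure D1:**
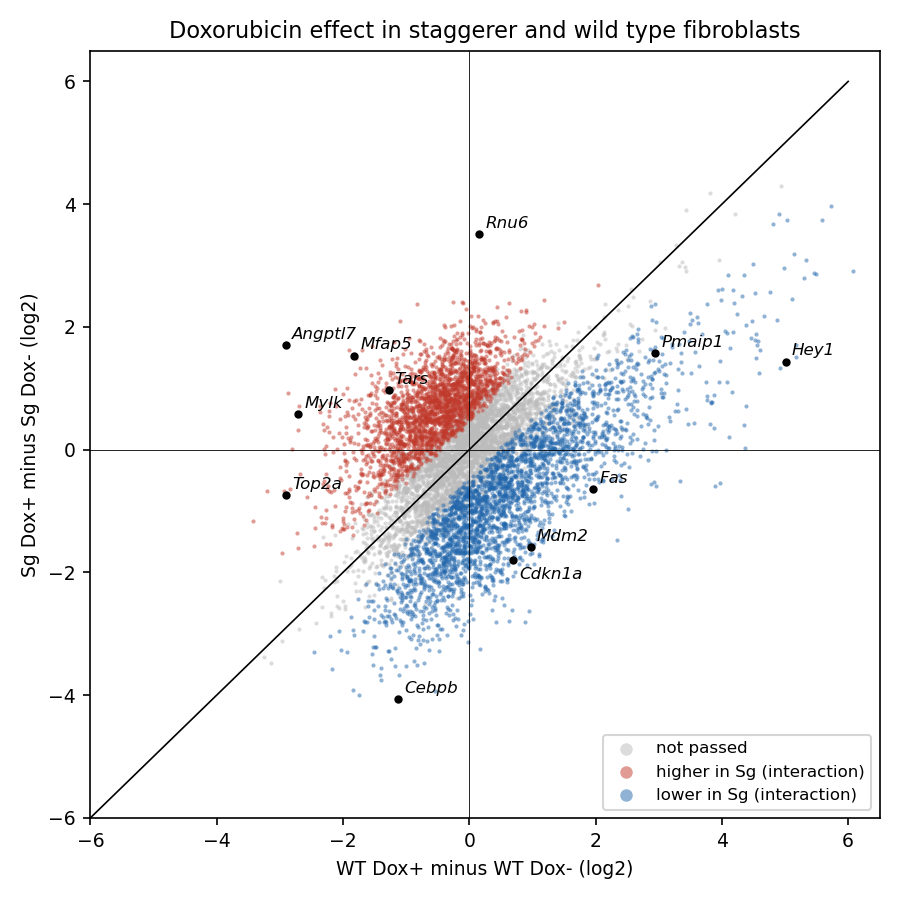
Doxorubicin effect in Sg cells (vertical axis, Sg Dox+ minus Sg Dox-, log2) against the effect in WT cells (horizontal axis, WT Dox+ minus WT Dox-, log2). Points are the 8625 of 9340 tested genes that have a symbol, 1 point each, and the diagonal marks equal effects. Genes called higher in the interaction lie above the diagonal and those called lower lie below it. The 2489 higher and 3036 lower calls over all 9340 genes include unnamed probes that are not drawn. Black points are genes named in the text, such as Cdkn1a (Sg -1.80, WT 0.69) and Mylk (Sg 0.58, WT -2.71).

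Untreated level was taken as the mean of the 4 untreated arrays, and the genes were placed in 10 bins of 934 genes. In the lowest bin 11.3% of genes were higher and 38.1% lower, the median interaction was -0.52, and 66.4% of its genes were undetected on both Sg Dox+ arrays. In the other 9 bins the median interaction ran between -0.16 and 0.03. The highest bin had 19.5% higher and 24.9% lower, and bins 4 to 9 had 30.2% to 32.2% higher and 32.8% to 38.7% lower. Each gene list below was therefore set beside genes of the same bins: "relative to like level" is the median of its members' interaction after the median of each member's bin was subtracted, and the percentages given as "at like level" are the shares of genes called in those bins.

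**Figure D2:**
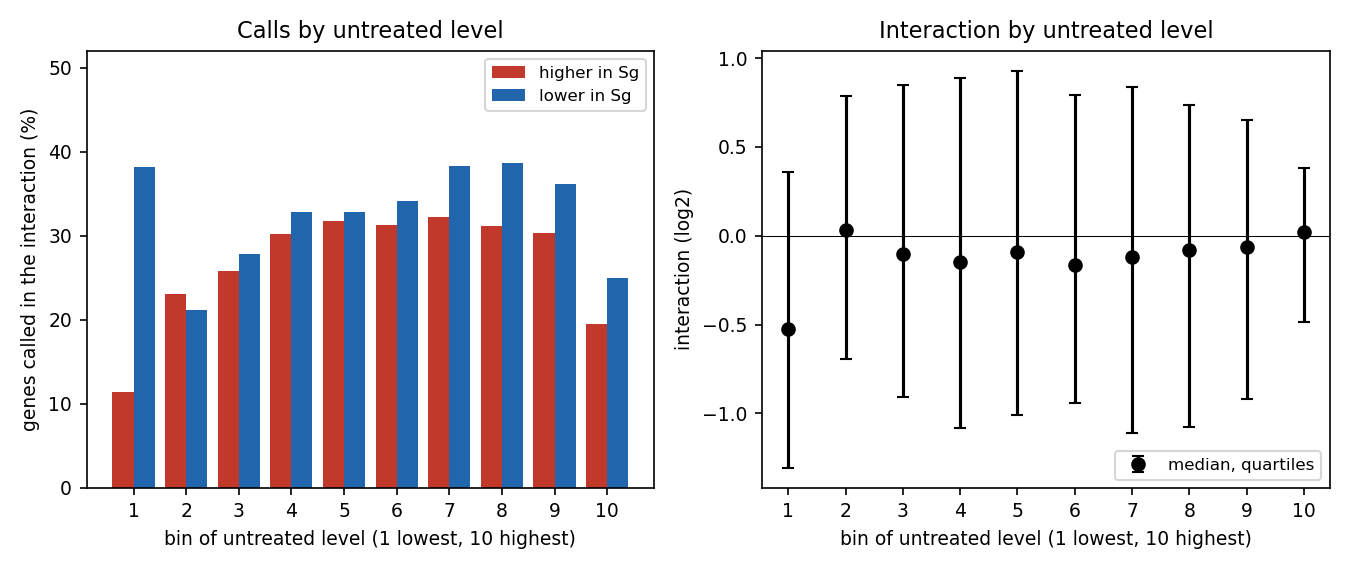
Left, the share of genes called higher (red) and lower (blue) in the interaction in each of 10 bins of untreated log2 level, 934 genes a bin. Right, the median interaction of each bin with its quartiles as bars; the lowest bin lies at -0.52 and the other bins between -0.16 and 0.03.

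The scaling of the arrays moved the centre of the interaction. The median over all 9340 genes was -0.11 with quantile normalization after background correction, -0.05 without background correction, 0.29 with median centring, -0.43 with no normalization between arrays, -0.23 with cyclic loess and -0.06 in the authors' deposited table. The split of calls moved with it, with 3686 higher and 2393 lower under median centring and 1565 higher and 3914 lower with no normalization. With undetected values placed at their floor, the median over all genes was 0.15. Of 63 gene lists, 45 kept the sign of their median over these 6 scalings, detection on all 8 arrays and the loss of either Sg Dox+ array. Each list median below is given with its range over the 6 scalings. The shift between scalings differed by level: under median centring the median interaction was 1.07 in the highest bin and 0.52 in the bin below it, against 0.29 for all genes. Ranges of lists of high level are to be read against their bins.

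**Figure D3:**
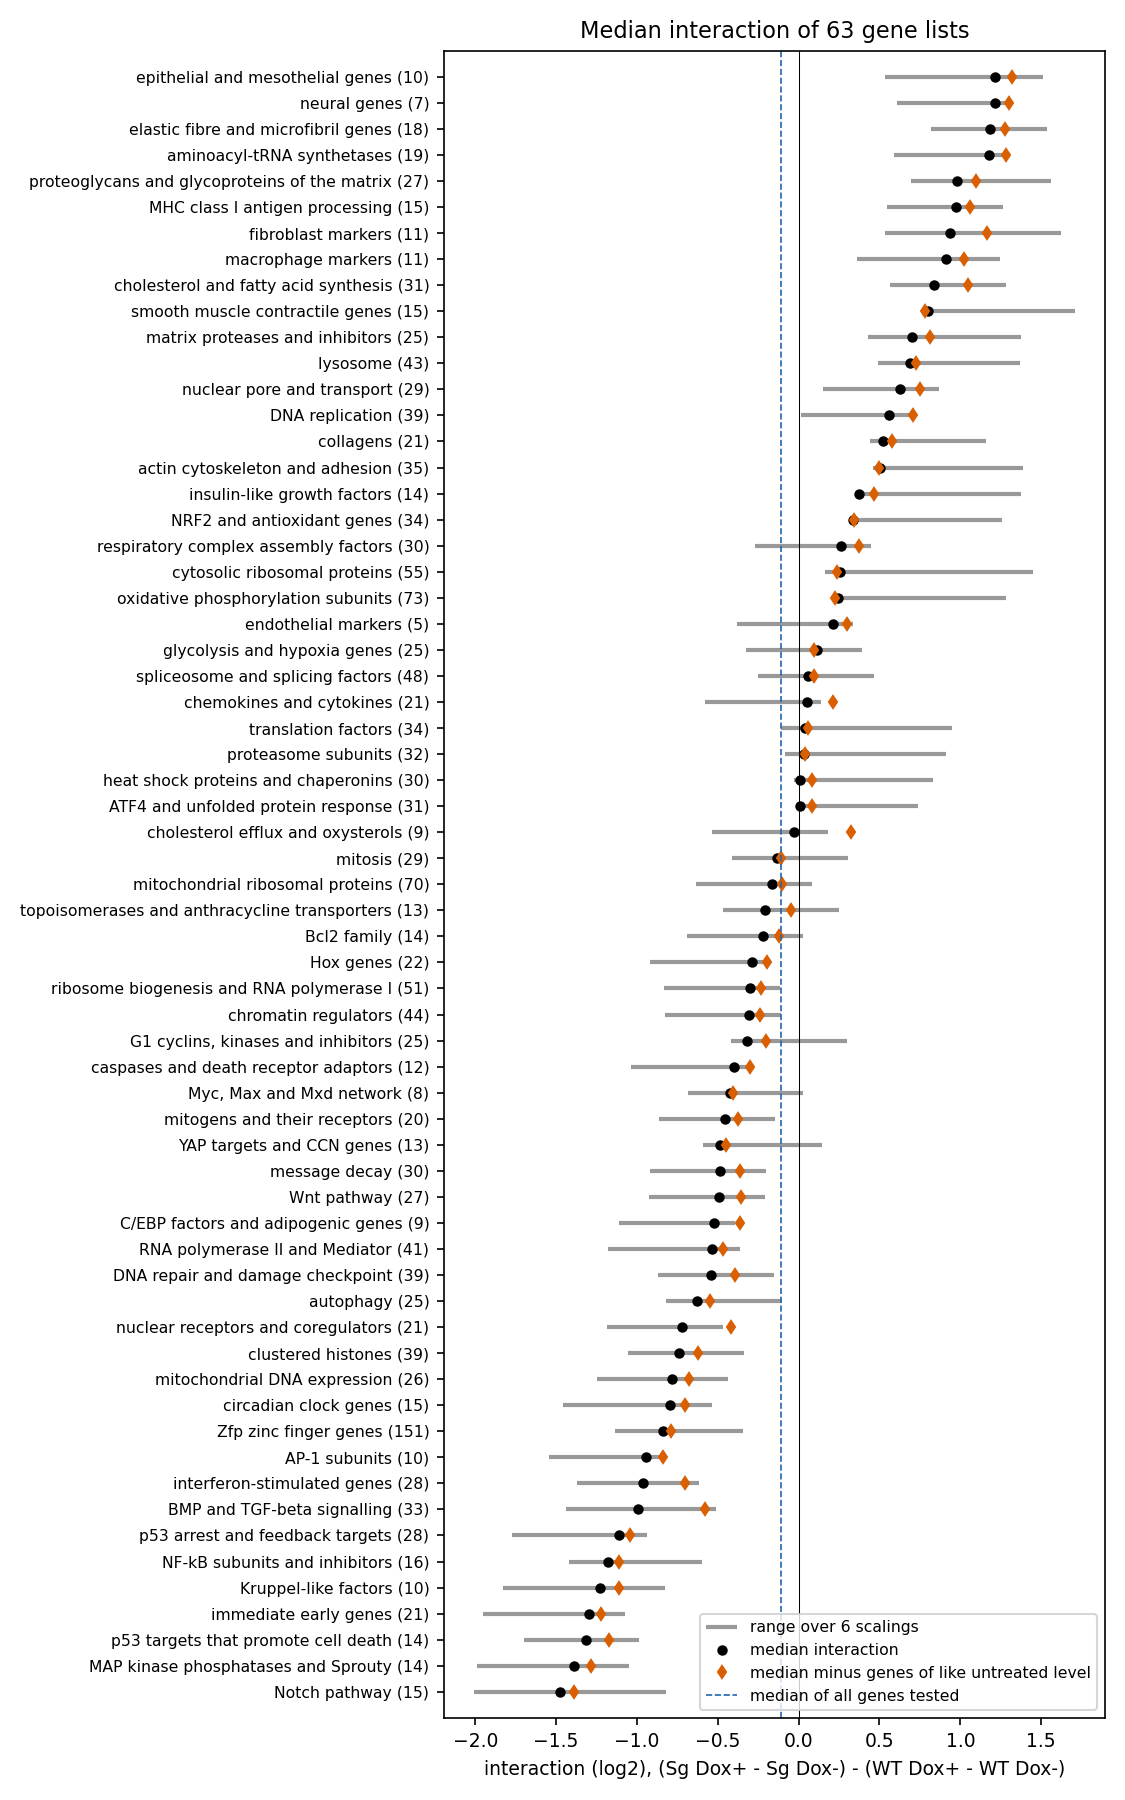
Median interaction of the tested members of 63 gene lists (black points, log2, number of members in brackets), its range over 6 scalings (grey bars) and the median relative to genes of like untreated level (orange diamonds). The dashed line is the median of all genes, -0.11; Notch, MAP kinase phosphatase, p53 and immediate early genes lie at the low end, and elastic fibre, aminoacyl-tRNA synthetase and matrix genes near the high end.

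Genes that p53 switches on for arrest and feedback were lower in the interaction. Of 28 tested, 17 were lower, 2 higher and 9 did not pass, against 32.8% lower and 28.5% higher among genes of like untreated level. Their median was -1.11 (between -1.77 and -0.94 across the 6 scalings), and -1.04 relative to like level. In Sg cells 5 of them rose and 14 fell with doxorubicin, whereas in WT cells 18 rose and 1 fell. Cdkn1a encodes p21, the inhibitor of cyclin-dependent kinases that holds damaged cells in G1. Its log2 signal was 12.25 and 12.24 in Sg Dox+ cells, 14.00 and 14.09 in Sg Dox- cells, 14.59 and 14.87 in WT Dox+ cells and 14.08 and 14.00 in WT Dox- cells. The Sg Dox+ arrays were the lowest and the WT Dox+ arrays the highest, with no overlap between treated and untreated arrays of a genotype. Cdkn1a fell by 1.80 in Sg and rose by 0.69 in WT cells, an interaction of -2.49 ± 0.19 (adjusted p = 0.000164).

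The promoter of Cdkn1a is printed because p53 acts on it directly. RefSeq gives 2 start sites, and the window printed runs from 250 bases before to 50 after the first (GRCm38.p6, chr17:29090729-29091028, plus strand), and the capitals mark matches to the p53 decamer, the 10-base arm of a p53 response element, at bases 178 to 187 and 200 to 209 of the window. The window of the other start, chr17:29093519-29093818, holds no match to the p53 decamer.

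Cdkn1a: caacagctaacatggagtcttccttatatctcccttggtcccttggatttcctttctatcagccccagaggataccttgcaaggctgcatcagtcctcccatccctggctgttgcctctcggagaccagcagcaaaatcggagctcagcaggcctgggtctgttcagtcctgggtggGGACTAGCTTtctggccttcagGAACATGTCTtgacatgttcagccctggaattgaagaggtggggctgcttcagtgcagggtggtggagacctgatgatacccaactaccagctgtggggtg

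Mdm2, the ubiquitin ligase that marks p53 for degradation, followed the same order of groups. It had 11.40 and 11.62 in Sg Dox+ cells, 13.21 and 12.99 in Sg Dox- cells, 13.93 and 13.99 in WT Dox+ cells and 12.91 and 13.07 in WT Dox- cells, which gave an interaction of -2.56 ± 0.20 (adjusted p = 0.000164) with Sg Dox+ lowest and WT Dox+ highest. Phlda3, an inhibitor of AKT signalling, had an interaction of -1.70, Gtse1, a regulator of p21 and p53 in G2, -2.41, and Sesn2, a stress protein that restrains mTORC1, -2.50, although 1 of the Sg Dox+ arrays did not detect it. Ppm1d encodes the phosphatase WIP1, which switches the damage kinases off again. Its log2 signal was 8.75 and 9.06 in Sg Dox+ cells, 9.24 and 9.01 in Sg Dox- cells, 11.32 and 11.39 in WT Dox+ cells and 9.22 and 9.22 in WT Dox- cells, so that WT Dox+ cells stood above the other 6 arrays, with an interaction of -2.36 ± 0.21 (adjusted p = 0.000205). Ercc5, a nuclease of nucleotide excision repair, had -2.13. Ccng1, a p53-induced cyclin, had -0.93, but 0.24 under median centring. Rrm2b, the p53-induced subunit of ribonucleotide reductase, was the member nearest to 0. It rose by 1.36 in Sg and by 1.37 in WT cells, with an interaction of -0.00 ± 0.20 (adjusted p = 0.988).

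The p53 targets that promote cell death moved likewise. Of 14 tested, 11 were lower, 1 higher and 2 did not pass, against 34.1% lower and 29.4% higher at like level, with a median of -1.32 (between -1.70 and -0.99 across the 6 scalings, -1.01 with undetected values at their floor) and -1.17 relative to like level. Fas, a death receptor, had 10.59 and 10.51 in Sg Dox+ cells, 11.29 and 11.10 in Sg Dox- cells, 12.07 and 12.04 in WT Dox+ cells and 9.94 and 10.24 in WT Dox- cells. Its Sg Dox+ arrays lay below the Sg Dox- arrays, while its WT Dox+ arrays lay above all others, and its interaction was -2.61 ± 0.20 (adjusted p = 0.000164). Bbc3, which encodes the BH3-only protein PUMA, had 6.84 and 7.41 in Sg Dox+ cells, 9.74 and 9.57 in Sg Dox- cells, 10.33 and 10.49 in WT Dox+ cells and 10.35 and 10.43 in WT Dox- cells. It fell by 2.53 in Sg cells and lay between 10.33 and 10.49 on the WT arrays, for an interaction of -2.55 ± 0.27 (adjusted p = 0.000307), while another probe, detected on 3 arrays, gave -0.32 and did not pass. Pmaip1, which encodes the BH3-only protein NOXA, rose in both genotypes. Its log2 signal was 10.61 and 10.83 in Sg Dox+ cells, 9.02 and 9.27 in Sg Dox- cells, 11.39 and 11.41 in WT Dox+ cells and 8.38 and 8.54 in WT Dox- cells, a rise of 1.57 in Sg and of 2.94 in WT cells, with an interaction of -1.37 ± 0.20 (adjusted p = 0.00106). Apaf1, the scaffold of the apoptosome, had -2.05 and Bid, a BH3-only protein cut by caspase 8, -1.26.

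**Figure D4:**
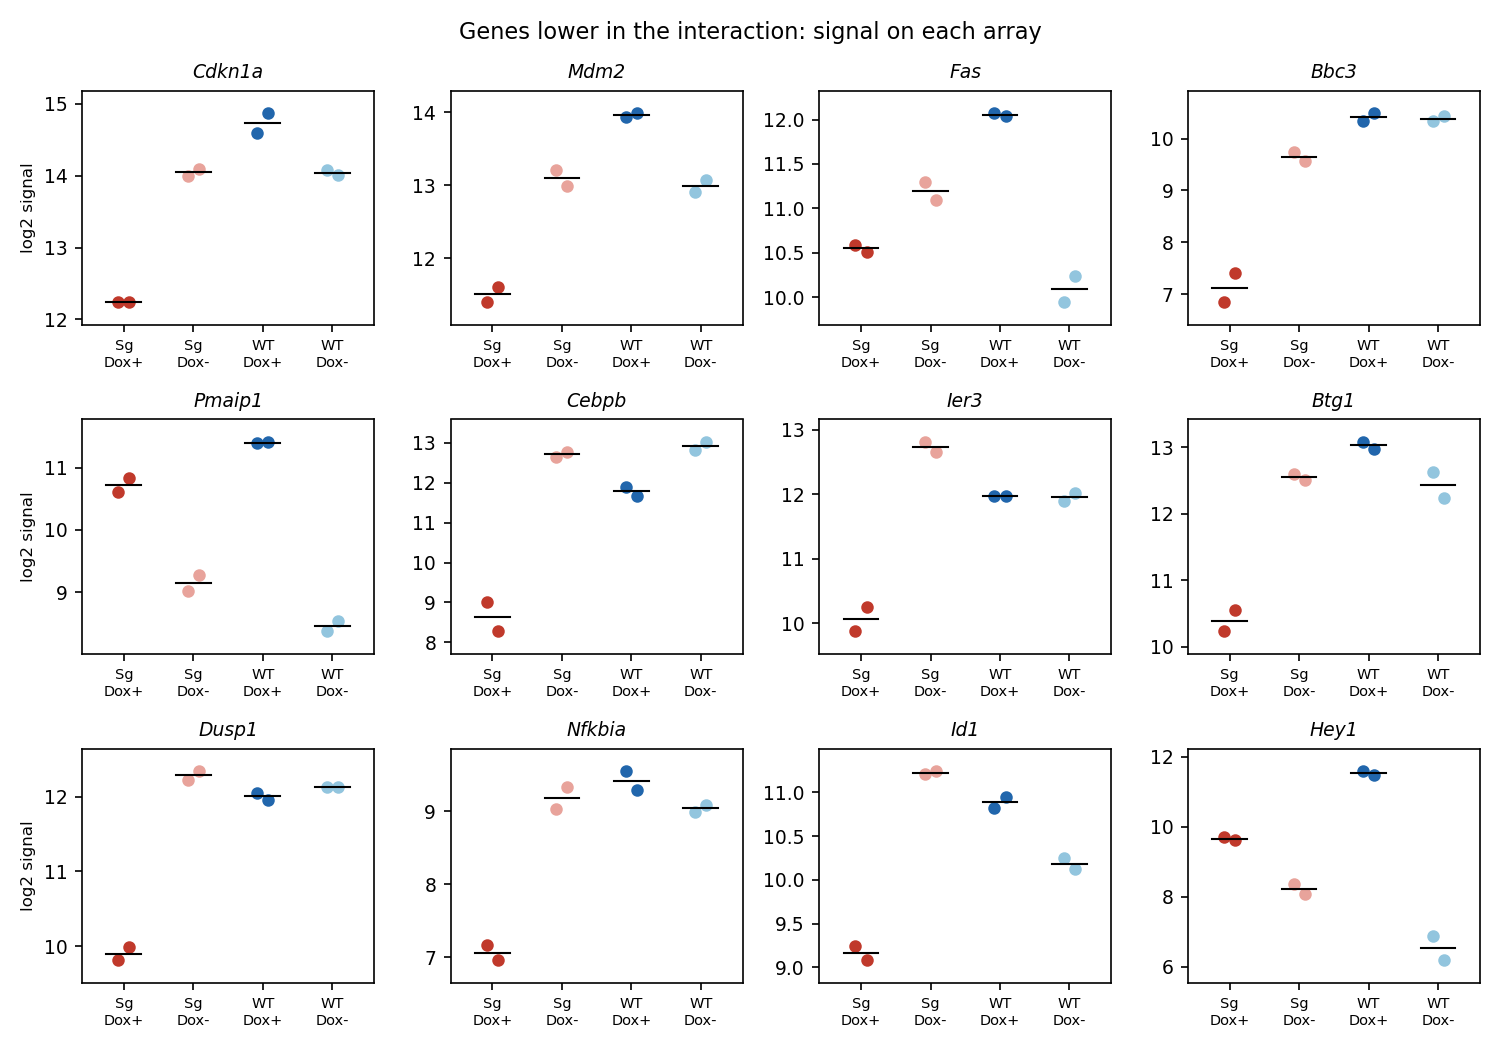
Log2 signal on each array (points) and group mean (bars) of 12 genes that were lower in the interaction, groups from left to right Sg Dox+, Sg Dox-, WT Dox+ and WT Dox-; the vertical scale differs between panels. Sg Dox+ points lie lowest in every panel except those of Fas, Pmaip1 and Hey1; Pmaip1 and Hey1 rose in both genotypes.

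The Bcl2 family holds both survival and death proteins, and its members went both ways. Of 14 members tested, among them the p53 targets Bbc3, Pmaip1 and Bid, 6 were lower and 2 higher, against 34.5% and 30.3% at like level, with a median of -0.22 (between -0.69 and 0.03 across the 6 scalings). Mcl1, a survival protein with a message of short life, had 9.27 and 9.54 in Sg Dox+ cells, 11.65 and 11.59 in Sg Dox- cells, 11.84 and 11.74 in WT Dox+ cells and 11.65 and 11.57 in WT Dox- cells; the Sg Dox+ arrays lay more than 2 log2 units below every other array, and the interaction was -2.38 ± 0.19 (adjusted p = 0.000165). Bcl2l1, which encodes the survival protein BCL-XL, had -1.85, and Bcl2l11, which encodes the BH3-only protein BIM, had -1.84 after a rise of 2.21 in WT cells. Of 12 caspases and death receptor adaptors, 4 were lower and 1 higher, against 36.1% and 31.1% at like level (median -0.40, between -1.04 and -0.31 across the 6 scalings). Fadd, the adaptor that recruits caspase 8 to Fas, was lower at -1.33, and Birc5, which encodes survivin, a mitotic inhibitor of apoptosis, was higher at 0.89.

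DNA repair and checkpoint genes were lower more often than higher. Of 39 tested, 19 were lower and 7 higher, against 32.6% and 28.7% at like level, and the median was -0.54 (between -0.87 and -0.15 across the 6 scalings, -0.21 with undetected values at their floor). Msh6, a mismatch recognition subunit, had an interaction of -1.97 ± 0.21 (adjusted p = 0.000293), having fallen by 0.74 in Sg and risen by 1.23 in WT cells. Rad9a and Rad1, members of the checkpoint clamp, had -1.84 and -1.78, and another probe of Rad9a, detected on 2 arrays, gave -0.72. Usp7, a deubiquitinase that acts on MDM2 and p53, had -0.82 ± 0.25 (adjusted p = 0.0221). The call for Usp7 was lost without either WT Dox- array, WT Dox+ replicate 2 or Sg Dox- replicate 2, with values of -0.84 to -0.73. Among 13 topoisomerases and anthracycline transporters, 2 were higher and 3 lower, against 25.3% and 34.1% at like level (median -0.21, between -0.47 and 0.25 across the 6 scalings, -0.19 and -0.13 without 1 or the other Sg Dox+ array). Top2a, the topoisomerase of dividing cells that doxorubicin poisons, had 9.48 and 9.28 in Sg Dox+ cells, 9.97 and 10.27 in Sg Dox- cells, 8.09 and 7.95 in WT Dox+ cells and 10.94 and 10.92 in WT Dox- cells. It fell in both genotypes, less in Sg cells, with an interaction of 2.17 ± 0.21 (adjusted p = 0.000226). Abcb1b, an efflux pump for anthracyclines, had -0.72 and Cbr3, a carbonyl reductase, -2.02.

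Immediate early genes, which answer growth factors and stress within minutes and whose messages decay fast, were lower in the interaction. Of 21 tested, 17 were lower, 1 higher and 3 did not pass, against 30.8% lower and 24.6% higher at like level. The median was -1.30 (between -1.95 and -1.07 across the 6 scalings), and -1.22 relative to like level. In Sg cells 5 rose and 15 fell, and in WT cells 9 rose and 5 fell. Btg1, an antiproliferative factor, had 10.23 and 10.56 in Sg Dox+ cells, 12.60 and 12.51 in Sg Dox- cells, 13.08 and 12.98 in WT Dox+ cells and 12.63 and 12.24 in WT Dox- cells. Its Sg Dox+ arrays lay below all others, and its interaction was -2.75 ± 0.24 (adjusted p = 0.000205). Ier3, a survival factor induced by NF-kB, had 9.87 and 10.25 in Sg Dox+ cells, 12.81 and 12.66 in Sg Dox- cells, 11.98 and 11.98 in WT Dox+ cells and 11.90 and 12.02 in WT Dox- cells, with the Sg Dox+ arrays lowest, the Sg Dox- arrays highest and little spread among WT arrays, for an interaction of -2.69 ± 0.22 (adjusted p = 0.000169). Sgk1, a serum-induced kinase, had -2.65, Gadd45g, a stress protein, -2.30, and Ccn1, a matricellular protein, -2.25. Egr1, a zinc finger factor, had 12.20 and 12.30 in Sg Dox+ cells, 12.88 and 12.87 in Sg Dox- cells, 14.16 and 14.03 in WT Dox+ cells and 13.20 and 13.19 in WT Dox- cells, a fall in Sg and a rise in WT cells, with an interaction of -1.53 ± 0.16 (adjusted p = 0.000306).

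AP-1 is a dimer of Fos and Jun family proteins. Of 10 subunits tested, 7 were lower and 1 higher, against 34% and 26% at like level, with a median of -0.94 (between -1.54 and -0.83 across the 6 scalings). Junb had 8.97 and 8.84 in Sg Dox+ cells, 9.82 and 9.84 in Sg Dox- cells, 10.83 and 10.87 in WT Dox+ cells and 9.58 and 9.62 in WT Dox- cells, with Sg Dox+ lowest and WT Dox+ highest, and an interaction of -2.17 ± 0.16 (adjusted p = 0.000164). Fosl1 had -2.08, Jun -1.46 and Fos -0.97, and the call for Fos was lost without WT Dox- replicate 2, WT Dox+ replicate 2 or Sg Dox- replicate 1, at -0.79 to -0.73. Atf3 was detected in WT Dox+ cells alone, so its fitted interaction, counted as lower above, rests on signal at background in the other groups and is not given. Kruppel-like factors are zinc finger proteins of growth and differentiation. Of 10 tested, 8 were lower and 0 higher, against 35.6% and 28.2% at like level, with a median of -1.23 (between -1.83 and -0.83 across the 6 scalings, -1.05 with undetected values at their floor). Klf6 had 10.40 and 10.38 in Sg Dox+ cells, 13.49 and 13.38 in Sg Dox- cells, 11.92 and 11.92 in WT Dox+ cells and 13.49 and 13.36 in WT Dox- cells; it fell in both genotypes, more in Sg cells, with an interaction of -1.54 ± 0.16 (adjusted p = 0.000298), and another probe gave -0.49 and did not pass. Klf9 had -1.91, Klf3 -1.46, Klf5 -1.33 and Klf4 -0.98, with -2.37 from another Klf4 probe detected on 7 arrays. Klf2, undetected on both Sg Dox+ arrays, was lower by at least 0.83.

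MAP kinase phosphatases and Sprouty proteins shut off the ERK pathway as its own targets. Of 14 tested, 11 were lower, 1 higher and 2 did not pass, against 32.6% lower and 27.4% higher at like level, with a median of -1.39 (between -1.99 and -1.05 across the 6 scalings) and -1.28 relative to like level. Dusp1, a nuclear phosphatase of p38 and JNK, had 9.81 and 9.99 in Sg Dox+ cells, 12.23 and 12.34 in Sg Dox- cells, 12.05 and 11.96 in WT Dox+ cells and 12.12 and 12.13 in WT Dox- cells. Every array other than Sg Dox+ lay between 11.96 and 12.34, and the interaction was -2.26 ± 0.17 (adjusted p = 0.000164). Dusp7, Dusp4 and Dusp6, phosphatases that favour ERK, had -2.52, -1.68 and -1.50, and Errfi1, an inhibitor of the EGF receptor, had -1.58. Dusp3, a small phosphatase, was the member that was higher, at 1.46.

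The Dusp1 promoter is shown as an example of this group, of which 3 of 11 matched members (27.3%) held a cyclic AMP response element, TGACGTCA, against 3.59% of the 7017 tested genes with a RefSeq promoter. It lies on the minus strand at chr17:26508423-26508722 (GRCm38.p6), and the capitals mark TGACGTCA at bases 108 to 115 and an E-box, CACGTG, at bases 125 to 130.

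Dusp1: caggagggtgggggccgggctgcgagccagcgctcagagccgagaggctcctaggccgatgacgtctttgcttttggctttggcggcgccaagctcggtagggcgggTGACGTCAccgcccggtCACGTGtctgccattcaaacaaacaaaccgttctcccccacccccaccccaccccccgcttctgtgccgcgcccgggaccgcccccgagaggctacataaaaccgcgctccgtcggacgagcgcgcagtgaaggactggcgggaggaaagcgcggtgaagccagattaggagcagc

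NF-kB subunits and their inhibitors were lower or did not pass. Of 16 tested, 9 were lower and 0 higher, against 31.4% and 28.6% at like level, with a median of -1.18 (between -1.42 and -0.60 across the 6 scalings, -0.59 with undetected values at their floor), and 6 were undetected on both Sg Dox+ arrays. Nfkbia encodes the inhibitor IκBα. Its log2 signal was 7.17 and 6.96 in Sg Dox+ cells, 9.03 and 9.33 in Sg Dox- cells, 9.55 and 9.29 in WT Dox+ cells and 8.99 and 9.09 in WT Dox- cells, with the Sg Dox+ arrays below all others, and its interaction was -2.50 ± 0.23 (adjusted p = 0.000207). Rela had -1.30. Relb, Nfkb2 and Traf6, a ubiquitin ligase upstream of NF-kB, were undetected on both Sg Dox+ arrays and lower by at least 1.31, 0.77 and 1.47; other probes of Traf6 gave -0.62 and -1.02 and did not pass. Of 21 chemokines and cytokines, 7 were higher and 3 lower, against 26.5% and 32.9% at like level (median 0.05, between -0.58 and 0.14 across the 6 scalings, 0.69 with undetected values at their floor, 0.07 and 0.15 without 1 or the other Sg Dox+ array). Cxcl1, a neutrophil attractant, was lower at -2.54. Cxcl12, the ligand of CXCR4, was higher at 2.53, having fallen by 0.68 in Sg and by 3.20 in WT cells, and Ccl25, a thymic chemokine, was higher at 1.66.

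Of 30 genes of message decay, 13 were lower and 8 higher, against 34.3% and 29.9% at like level, with a median of -0.49 (between -0.92 and -0.20 across the 6 scalings, -0.27 with undetected values at their floor, -0.64 and -0.31 without 1 or the other Sg Dox+ array). Among the lower members were regulators: Zfp36, which targets AU-rich messages, had -2.04, and Tob1 and Tob2, which recruit deadenylases, had -2.50 and -2.07, the last undetected on 1 of the Sg Dox+ arrays. Exosome subunits went both ways, with Exosc4 lower at -2.04 and Exosc2 higher at 2.01, although another probe of Exosc2 gave 0.83 and did not pass. Of 8 members of the Myc, Max and Mxd network, 2 were lower and 0 higher, against 30.2% and 23% at like level, and 5 were undetected on both Sg Dox+ arrays (median -0.42, between -0.69 and 0.03 across the 6 scalings, 0.14 with undetected values at their floor), so the sign of the median depends on the scaling and on the floor. Mycl had -1.68 after a rise of 1.25 in Sg and of 2.93 in WT cells.

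BMP and TGF-beta signals act through SMAD proteins on Id genes and on feedback inhibitors. Of 33 pathway genes tested, 16 were lower, 6 higher and 11 did not pass, against 34.3% lower and 28.1% higher at like level. The median was -0.99 (between -1.44 and -0.51 across the 6 scalings, -0.53 with undetected values at their floor), and -0.58 relative to like level. Id1, an inhibitor of differentiation induced by BMP, had 9.25 and 9.08 in Sg Dox+ cells, 11.21 and 11.24 in Sg Dox- cells, 10.82 and 10.95 in WT Dox+ cells and 10.25 and 10.12 in WT Dox- cells. It fell by 2.06 in Sg and rose by 0.70 in WT cells, with the Sg Dox+ arrays lowest and an interaction of -2.76 ± 0.17 (adjusted p = 0.000149). Id3 had -2.51, Smad6, the inhibitory SMAD, -2.26, Skil, a co-repressor, -1.74 and Smad3 -1.72. Tgfbr3, the co-receptor betaglycan, was higher at 2.11.

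Notch receptors are cut on contact with ligand, and their intracellular part switches on Hes and Hey repressors. Of 15 tested, 12 were lower, 1 higher and 2 did not pass, against 32.1% lower and 25% higher at like level, with a median of -1.47 (between -2.01 and -0.82 across the 6 scalings, -1.31 with undetected values at their floor) and -1.39 relative to like level. In Sg cells 5 rose and 5 fell, and in WT cells 9 rose and 1 fell. Hey1 had 9.70 and 9.62 in Sg Dox+ cells, 8.37 and 8.07 in Sg Dox- cells, 11.59 and 11.48 in WT Dox+ cells and 6.87 and 6.18 in WT Dox- cells, a rise of 1.44 in Sg and of 5.01 in WT cells, and its interaction of -3.57 ± 0.32 (adjusted p = 0.000205) was the lowest of the named genes detected on all 8 arrays. Notch3 had 9.12 and 9.10 in Sg Dox+ cells, 7.78 and 7.53 in Sg Dox- cells, 10.06 and 10.17 in WT Dox+ cells and 7.29 and 7.24 in WT Dox- cells, so that treated cells of both genotypes lay above untreated ones, with an interaction of -1.39. Hes6 had -1.87 and Hes1 -1.71. Notch1, undetected on both Sg Dox+ arrays, was lower by at least 2.32.

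Wnt and YAP pathway genes had less uniform values. Of 27 Wnt genes, 10 were lower and 5 higher, against 32.4% and 24.9% at like level (median -0.49, between -0.93 and -0.21 across the 6 scalings, -0.12 with undetected values at their floor, 0.13 over members detected on all 8 arrays). The receptor gene Fzd7 had -1.56, Fzd8, undetected on the Sg Dox+ arrays, was lower by at least 1.29, and Lrp5, a co-receptor, was higher at 1.18. Of 13 YAP targets and CCN genes, 4 were lower and 3 higher, against 31.6% and 26.8% at like level (median -0.49, between -0.59 and 0.14 across the 6 scalings, -0.12 with undetected values at their floor). Ccn5 was higher at 2.26, having fallen by 1.16 in Sg and by 3.42 in WT cells, Ccn2 was lower at -0.87 but 0.14 under median centring, and Amotl2, an angiomotin that binds YAP, was lower by at least 2.24. Of 22 Hox genes, which mark position along the body axis, 8 were lower and 2 higher, against 31% and 27.4% at like level (median -0.29, between -0.92 and -0.20 across the 6 scalings, -0.54 and -0.28 without 1 or the other Sg Dox+ array), with Hoxc6 at -2.64, Hoxa5 at -1.76 and Hoxd8 at 1.71.

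RORα is known for its clock targets, which include Arntl and Nr1d1. Of 15 clock genes tested, 8 were lower and 0 higher, against 34% lower and 29.9% higher at like level, with a median of -0.79 (between -1.46 and -0.54 across the 6 scalings) and -0.71 relative to like level. In Sg cells 0 rose and 10 fell with doxorubicin, and in WT cells 3 rose and 4 fell. Nfil3, a repressor of D-box genes, had 9.16 and 9.43 in Sg Dox+ cells, 10.95 and 11.16 in Sg Dox- cells, 11.40 and 11.33 in WT Dox+ cells and 11.08 and 10.92 in WT Dox- cells, with the Sg Dox+ arrays lowest and an interaction of -2.13 ± 0.20 (adjusted p = 0.000235). Bhlhe40, a repressor of E-box genes, had -1.81, Per2, a core repressor, -1.58, or -2.75 from another probe detected on 6 arrays, and Tef, a D-box activator, -1.19. Arntl, which encodes BMAL1, had 7.90 and 6.98 in Sg Dox+ cells, 7.94 and 7.99 in Sg Dox- cells, 9.03 and 8.96 in WT Dox+ cells and 8.45 and 8.03 in WT Dox- cells. Its interaction of -1.28 ± 0.40 (adjusted p = 0.0259) was -0.83 without Sg Dox+ replicate 2, and the call was lost without either Sg Dox- array, either WT Dox+ array or WT Dox- replicate 2, at -1.32 to -1.07. Nr1d1, which encodes REV-ERBα, was undetected on both Sg Dox+ arrays and lower by at least 1.64, whereas another probe, detected on 3 arrays, gave -0.48 and did not pass.

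Of 21 nuclear receptors and coregulators, 10 were lower and 1 higher, against 31.8% and 25.9% at like level, with 11 undetected on both Sg Dox+ arrays (median -0.72, between -1.19 and -0.47 across the 6 scalings, -0.52 with undetected values at their floor). Esrra, which encodes a driver of mitochondrial genes, had -1.58 and Rxrb, a retinoid X receptor, -1.91, with -0.68 from another probe. Nr2f2 and Ncoa1, a coactivator of nuclear receptors, were undetected on the Sg Dox+ arrays and lower by at least 1.44 and 2.75. Of 151 Zfp zinc finger genes, 84 were lower and 5 higher, against 31.7% and 27% at like level. Their median was -0.84 (between -1.14 and -0.34 across the 6 scalings, -0.10 with undetected values at their floor), and 74 of them were undetected on both Sg Dox+ arrays. Zfp64 had 8.75 and 9.15 in Sg Dox+ cells, 9.67 and 9.75 in Sg Dox- cells, 11.23 and 11.19 in WT Dox+ cells and 9.69 and 9.75 in WT Dox- cells, with Sg Dox+ lowest and WT Dox+ highest, and an interaction of -2.25. Of 41 genes of RNA polymerase II and Mediator, 21 were lower and 8 higher, against 35.5% and 30.9% at like level (median -0.54, between -1.18 and -0.36 across the 6 scalings); the Mediator subunit gene Med18 was lower at -2.49, although 1 of the Sg Dox+ arrays did not detect it, and Med16 was higher at 2.29. Of 44 chromatin regulators, 17 were lower and 8 higher, against 33.2% and 29.1% at like level (median -0.30, between -0.83 and -0.11 across the 6 scalings, -0.01 with undetected values at their floor), with the histone demethylase genes Kdm4b, Kdm6a and Kdm6b at -1.79, -1.72 and -1.64.

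C/EBP factors bind CCAAT-like sites in fat, liver and inflamed cells. Of 9 C/EBP and adipogenic genes, 4 were lower and 3 higher, against 33.1% and 23.6% at like level (median -0.52, between -1.11 and -0.39 across the 6 scalings, -0.40 with undetected values at their floor). Cebpb had 9.01 and 8.28 in Sg Dox+ cells, 12.65 and 12.77 in Sg Dox- cells, 11.89 and 11.67 in WT Dox+ cells and 12.81 and 13.02 in WT Dox- cells. It fell by 4.07 in Sg and by 1.14 in WT cells, for an interaction of -2.94 ± 0.33 (adjusted p = 0.000361).

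Interferon-stimulated genes and the class I pathway, which often rise together, lay on opposite sides. Of 28 interferon-stimulated genes tested, 19 were lower and 2 higher, against 32.5% and 25.7% at like level, with a median of -0.96 (between -1.37 and -0.62 across the 6 scalings, -0.80 with undetected values at their floor) and -0.70 relative to like level. In Sg cells 6 rose and 10 fell with doxorubicin, and in WT cells 17 rose and 4 fell. Ifi35, an interferon-induced leucine zipper protein, had 7.78 and 8.14 in Sg Dox+ cells, 7.98 and 8.14 in Sg Dox- cells, 10.27 and 10.24 in WT Dox+ cells and 7.95 and 7.97 in WT Dox- cells. Only the WT Dox+ arrays stood above 9, and the interaction was -2.39 ± 0.21 (adjusted p = 0.000195). Samd9l, a restrictor of translation in infected cells, had -2.29 and Gbp3, a guanylate-binding protein, -2.04. Bst2, which tethers viruses to the membrane, was higher at 1.60, and the call was lost without Sg Dox- replicate 2, WT Dox+ replicate 1 or WT Dox- replicate 2, at 1.26 to 1.44.

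Class I antigen processing genes load peptides onto H2 molecules. Of 15 tested, 9 were higher, 3 lower and 3 did not pass, against 27% higher and 29.2% lower at like level, with a median of 0.97 (between 0.55 and 1.26 across the 6 scalings) and 1.06 relative to like level. H2-M3, a nonclassical class I molecule, had an interaction of 2.17 ± 0.20 (adjusted p = 0.000206). Tapbp, which encodes the loading factor tapasin, had 1.75, with 0.50 from another probe. The members that were lower included Nlrc5, the transactivator of class I genes, at -2.10, and Tap1, the peptide transporter. Tap1 had 7.61 and 7.34 in Sg Dox+ cells, 6.77 and 6.41 in Sg Dox- cells, 8.78 and 8.84 in WT Dox+ cells and 6.33 and 6.27 in WT Dox- cells, with WT Dox+ highest, and an interaction of -1.63 ± 0.22 (adjusted p = 0.00077). Both genes rose in both genotypes, more in WT cells.

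Most replication-dependent histone genes rose in each genotype, and most were lower in the interaction. Of 39 clustered histone genes tested, 25 were lower, 0 higher and 14 did not pass, against 32.8% lower and 26.5% higher at like level. Their median was -0.74 (between -1.05 and -0.34 across the 6 scalings). In Sg cells 25 rose and 8 fell, and in WT cells 27 rose and 8 fell. H4c8 had 11.56 and 11.70 in Sg Dox+ cells, 10.38 and 10.35 in Sg Dox- cells, 11.67 and 11.76 in WT Dox+ cells and 8.76 and 8.79 in WT Dox- cells. Treated cells of the genotypes overlapped in range, and the untreated Sg arrays lay above the untreated WT arrays, which gave an interaction of -1.67 ± 0.16 (adjusted p = 0.00024). H3c6 had -1.72, H2bc6 -1.28 and H2ac24 -1.36. Histone genes are near-identical copies of each other, so a probe may report several of them.

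Genes of DNA replication were higher in the interaction. Of 39 tested, 19 were higher, 5 lower and 15 did not pass, against 29.5% higher and 34.1% lower at like level, with a median of 0.56 (between 0.01 and 0.73 across the 6 scalings) and 0.71 relative to like level. In Sg cells 14 rose and 15 fell with doxorubicin, and in WT cells 2 rose and 26 fell. Tk1, thymidine kinase, had 10.12 and 9.98 in Sg Dox+ cells, 9.87 and 9.65 in Sg Dox- cells, 7.84 and 8.15 in WT Dox+ cells and 10.26 and 10.17 in WT Dox- cells. The WT Dox+ arrays lay below the other 6, and the interaction was 2.51 ± 0.22 (adjusted p = 0.000191). Mcm2, a subunit of the replicative helicase, had 9.66 and 9.71 in Sg Dox+ cells, 9.09 and 9.20 in Sg Dox- cells, 7.63 and 7.64 in WT Dox+ cells and 9.41 and 9.53 in WT Dox- cells, again with the WT Dox+ arrays lowest, for an interaction of 2.38 ± 0.16 (adjusted p = 0.000164). Rrm1, a subunit of ribonucleotide reductase, had 2.22, Pold1, the catalytic subunit of DNA polymerase delta, 2.21, and Pcna, the sliding clamp, 2.07, with 1 of the WT Dox+ arrays not detecting it.

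Mitotic genes went both ways. Of 29 tested, 8 were higher and 7 lower, against 29.5% and 33% at like level (median -0.13, between -0.41 and 0.30 across the 6 scalings, 0.26 with undetected values at their floor, 0.13 over members detected on all 8 arrays, -0.27 and -0.01 without 1 or the other Sg Dox+ array). Spc24, a kinetochore subunit, was higher at 1.58 and Tpx2, a spindle assembly factor, at 1.41. Cdc20, the activator of the anaphase-promoting complex, was lower at -1.34. Of 25 G1 cyclins, kinases and inhibitors, 5 were higher and 6 lower, against 26.9% and 31.5% at like level (median -0.32, between -0.42 and 0.30 across the 6 scalings). Rb1, the retinoblastoma repressor, had 9.52 and 9.59 in Sg Dox+ cells, 9.71 and 9.46 in Sg Dox- cells, 11.50 and 11.45 in WT Dox+ cells and 9.64 and 9.34 in WT Dox- cells, with the WT Dox+ arrays alone above 11, and an interaction of -2.01 ± 0.21 (adjusted p = 0.000293). Cdkn2b, which encodes the inhibitor p15, was lower at -1.68, and Skp2, which marks p27 for degradation, was higher at 1.20.

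Aminoacyl-tRNA synthetases, which charge tRNAs with amino acids and are targets of the stress factor ATF4, were higher. Of 19 tested, 12 were higher, 2 lower and 5 did not pass, against 28.3% higher and 34% lower at like level, with a median of 1.18 (between 0.59 and 1.30 across the 6 scalings) and 1.28 relative to like level. In Sg cells 6 rose and 7 fell, and in WT cells 0 rose and 15 fell. Tars, the threonine enzyme, had 8.35 and 8.63 in Sg Dox+ cells, 7.31 and 7.73 in Sg Dox- cells, 6.83 and 6.99 in WT Dox+ cells and 8.39 and 7.99 in WT Dox- cells. It rose by 0.97 in Sg cells and fell by 1.28 in WT cells, for an interaction of 2.25 ± 0.28 (adjusted p = 0.00055). Lars had 1.99, Farsb 1.55, Nars 1.49 and Kars 1.39.

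The Tars promoter is shown because 3 of 14 matched synthetase genes (21.4%) held the amino acid response element bound by ATF4, TGATGCAA, against 0.713% of all matched genes and 2 of 9 matched AP-1 subunits (22.2%). It lies on the minus strand at chr15:11399609-11399908 (GRCm38.p6), and the capitals mark the element, here on the opposite strand, at bases 236 to 243 and an E-box at bases 270 to 275.

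Tars: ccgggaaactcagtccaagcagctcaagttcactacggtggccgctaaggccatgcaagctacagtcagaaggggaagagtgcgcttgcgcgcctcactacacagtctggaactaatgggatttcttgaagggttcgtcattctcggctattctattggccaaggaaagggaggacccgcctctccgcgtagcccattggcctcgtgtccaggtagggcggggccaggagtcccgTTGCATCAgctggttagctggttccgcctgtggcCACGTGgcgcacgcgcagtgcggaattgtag

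The wider ATF4 and unfolded protein response list went both ways. Of 31 tested, 13 were higher and 9 lower, against 26.5% and 30.9% at like level (median 0.01, between 0.01 and 0.74 across the 6 scalings, 0.48 with undetected values at their floor, 0.11 and 0.16 without 1 or the other Sg Dox+ array). Mthfd2 and Shmt2, mitochondrial enzymes of 1-carbon metabolism, had 2.55 and 2.38, Atf5, a stress factor, 2.11, and Pdia6, a disulfide isomerase of the endoplasmic reticulum, 2.27. Syvn1, a ubiquitin ligase of protein disposal in the endoplasmic reticulum, was lower at -2.58.

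Genes of cholesterol and fatty acid synthesis, which SREBP factors drive, were higher. Of 31 tested, 22 were higher, 4 lower and 5 did not pass, against 27% higher and 32.3% lower at like level, with a median of 0.84 (between 0.57 and 1.28 across the 6 scalings) and 1.05 relative to like level. In Sg cells 15 rose and 7 fell with doxorubicin, and in WT cells 6 rose and 20 fell. Sc5d, a late sterol desaturase, had 8.86 and 8.66 in Sg Dox+ cells, 7.55 and 7.60 in Sg Dox- cells, 6.54 and 6.75 in WT Dox+ cells and 7.52 and 7.62 in WT Dox- cells. Untreated cells of the genotypes overlapped, Sg Dox+ cells lay above them and WT Dox+ cells below, for an interaction of 2.11 ± 0.19 (adjusted p = 0.000206). Insig1, which holds SREBP in the endoplasmic reticulum, had 2.50, with 0.69 from another probe that did not pass. Dhcr7, the last step of cholesterol synthesis, had 1.87, Lss, lanosterol synthase, 1.85 and Scd2, a fatty acid desaturase, 1.75. Of 9 genes of cholesterol efflux and oxysterols, 2 were higher and 1 lower, against 25.5% and 33.9% at like level (median -0.03, between -0.54 and 0.18 across the 6 scalings, 0.21 with undetected values at their floor, -0.06 and 0.03 without 1 or the other Sg Dox+ array). Cyp27a1, the sterol 27-hydroxylase, had 9.53 and 9.86 in Sg Dox+ cells, 6.96 and 6.84 in Sg Dox- cells, 11.94 and 12.09 in WT Dox+ cells and 6.97 and 6.48 in WT Dox- cells; it rose in both genotypes, more in WT cells, for an interaction of -2.50, and -3.69 from another probe.

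Genes of the extracellular matrix were higher. Of 18 elastic fibre and microfibril genes tested, 12 were higher, 0 lower and 6 did not pass, against 28% higher and 31.7% lower at like level, with a median of 1.19 (between 0.82 and 1.53 across the 6 scalings) and 1.27 relative to like level. In Sg cells 13 rose and 1 fell, and in WT cells 3 rose and 6 fell. Mfap5, a microfibril glycoprotein, had 10.66 and 10.68 in Sg Dox+ cells, 9.16 and 9.11 in Sg Dox- cells, 6.44 and 6.61 in WT Dox+ cells and 8.27 and 8.44 in WT Dox- cells. The 4 groups did not overlap, with Sg Dox+ highest and WT Dox+ lowest, and the interaction was 3.36 ± 0.18 (adjusted p = 0.000137). Loxl2, which crosslinks elastin and collagen, had 1.74, Mfap2 1.77 and Emilin1, an elastin interface protein, 1.44.

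Of 27 proteoglycans and glycoproteins of the matrix, 16 were higher, 0 lower and 11 did not pass, against 24.3% higher and 30.9% lower at like level; the median was 0.98 (between 0.69 and 1.56 across the 6 scalings), and 1.10 relative to like level. Lum, which encodes the collagen-binding proteoglycan lumican, had 10.74 and 10.81 in Sg Dox+ cells, 10.13 and 10.05 in Sg Dox- cells, 8.12 and 8.04 in WT Dox+ cells and 9.21 and 9.13 in WT Dox- cells, with both Sg groups above both WT groups and an interaction of 1.77 ± 0.16 (adjusted p = 0.000206). Lamb1, a laminin chain, had 1.82, Thbs1, thrombospondin 1, 1.76 and Dcn, decorin, 1.49. Of 21 collagen genes, 10 were higher and 3 lower, against 23.6% and 31% at like level (median 0.52, between 0.44 and 1.16 across the 6 scalings). The chains of the main fibrils Col3a1 and Col1a2 had 1.25 and 1.10, whereas Col18a1, the source of endostatin, was lower at -1.53. Of 25 matrix proteases and inhibitors, 13 were higher and 0 lower, against 25.9% and 32.2% at like level (median 0.70, between 0.43 and 1.37 across the 6 scalings). Adamts5, an aggrecanase, had 10.66 and 10.53 in Sg Dox+ cells, 10.18 and 10.37 in Sg Dox- cells, 7.54 and 7.41 in WT Dox+ cells and 10.16 and 10.22 in WT Dox- cells; the WT Dox+ arrays lay far below the other 6, and the interaction was 3.03 ± 0.18 (adjusted p = 0.000137). Ctsk, a collagen-cutting cathepsin, had 1.77 and Adam9 1.84.

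**Figure D5:**
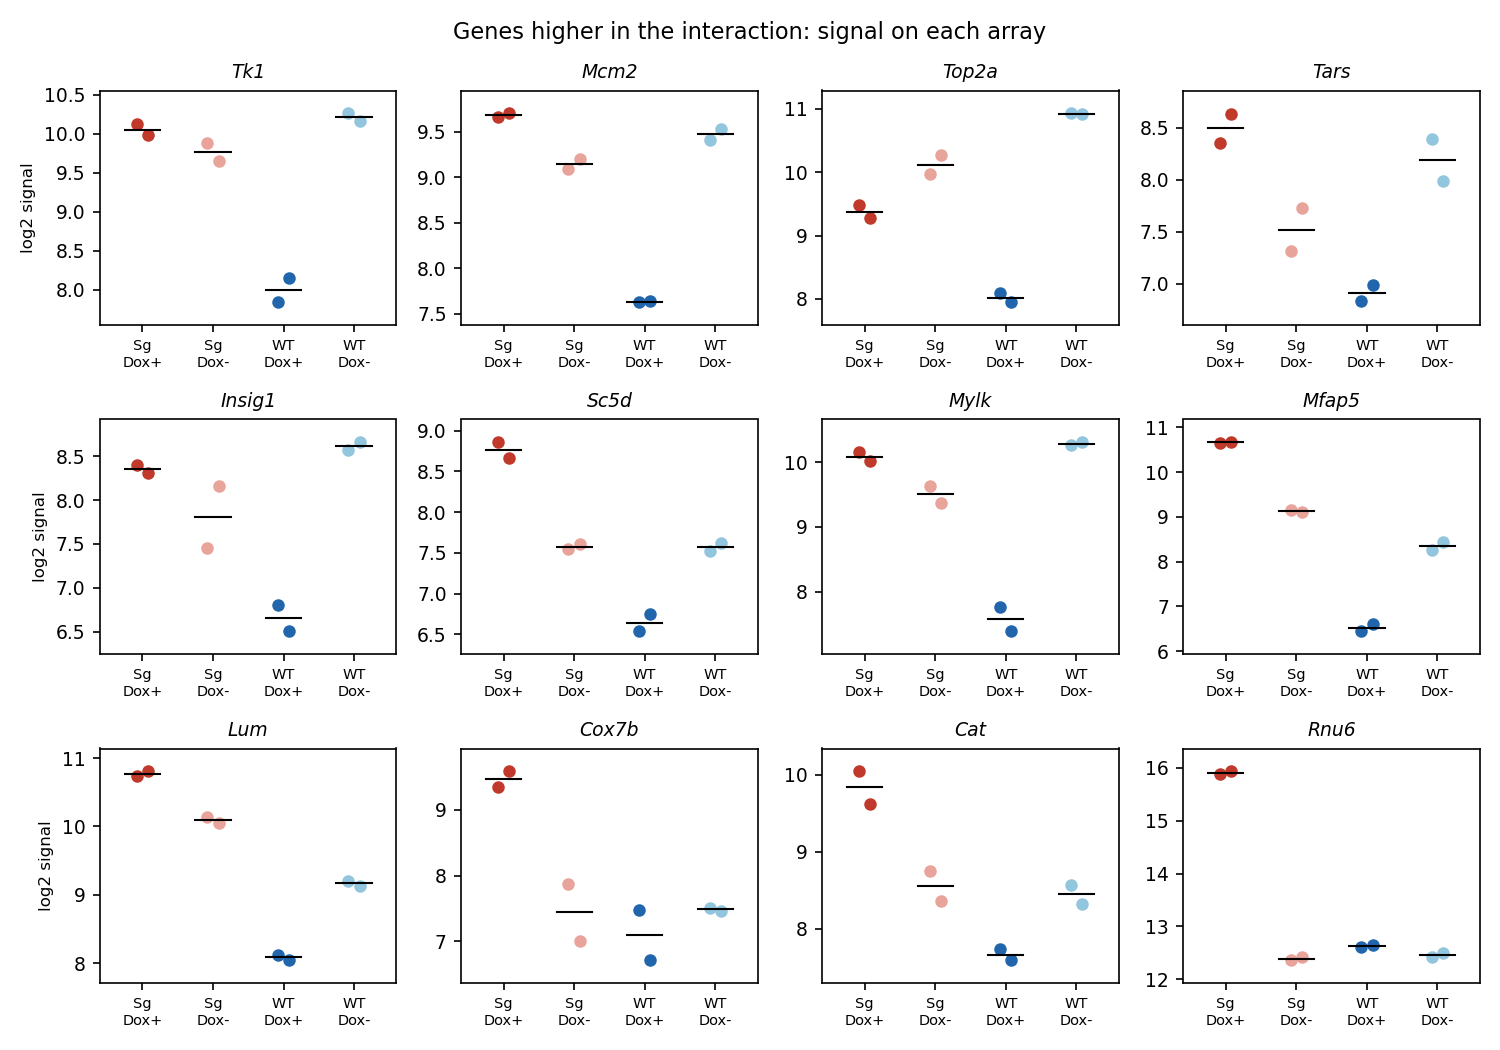
Log2 signal on each array (points) and group mean (bars) of 12 genes that were higher in the interaction, groups from left to right Sg Dox+, Sg Dox-, WT Dox+ and WT Dox-; the vertical scale differs between panels. WT Dox+ points lie lowest in most panels, such as Tk1, Mcm2 and Mylk, and Sg Dox+ points lie alone at the top for Sc5d, Cox7b, Cat and Rnu6.

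Smooth muscle contractile genes, which serum response factor and myocardin drive and which cultured fibroblasts also express, were higher. Of 15 tested, 8 were higher and 2 lower, against 26.6% and 31.3% at like level, with a median of 0.80 (between 0.78 and 1.71 across the 6 scalings) and 0.78 relative to like level. Mylk, which encodes myosin light chain kinase, had 10.16 and 10.02 in Sg Dox+ cells, 9.63 and 9.37 in Sg Dox- cells, 7.76 and 7.39 in WT Dox+ cells and 10.26 and 10.31 in WT Dox- cells, with the WT Dox+ arrays lowest and an interaction of 3.30 ± 0.23 (adjusted p = 0.000164). Myh11, smooth muscle myosin, had 2.15, Cald1, caldesmon, 1.94, Lmod1, leiomodin, 1.80 and Cnn2, a calponin, 2.61, with 3.87 from another probe. Of 35 genes of the actin cytoskeleton and adhesion, 16 were higher and 4 lower, against 25.2% and 30.3% at like level (median 0.50, between 0.46 and 1.39 across the 6 scalings). Tln1, which links integrins to actin, had 1.94, Cdc42 1.47 and Evl, which extends filaments, 1.93. Limk2, which inactivates cofilin, was lower at -2.61, with -0.86 from another probe that did not pass.

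Growth factor genes were mixed. Of 14 insulin-like growth factor genes, 6 were higher and 1 lower, against 28.7% and 32.8% at like level (median 0.37, between 0.36 and 1.37 across the 6 scalings). The binding protein genes Igfbp5 and Igfbp6 had 2.15 and 1.85 and Igf1 itself 1.24, while Irs2, an adaptor of the insulin receptor, was lower at -2.80, with 1 of the Sg Dox+ arrays not detecting it. Of 20 mitogens and their receptors, 5 were higher and 7 lower, against 27.7% and 31.2% at like level (median -0.46, between -0.86 and -0.15 across the 6 scalings). Pdgfc had 1.74 and Fgfr1 1.35, and Vegfa, the angiogenic factor, was lower at -1.34.

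Oxidative phosphorylation subunits were higher or did not pass, with few lower. Of 73 tested, 25 were higher, 5 lower and 43 did not pass, against 23.6% higher and 28.6% lower at like level, with a median of 0.25 (between 0.20 and 1.28 across the 6 scalings) and 0.22 relative to like level. The upper end of that range too is from median centring. In Sg cells 37 rose and 6 fell with doxorubicin, and in WT cells 10 rose and 9 fell. Cox7b, a subunit of cytochrome oxidase, had 9.35 and 9.59 in Sg Dox+ cells, 7.88 and 7.01 in Sg Dox- cells, 7.48 and 6.71 in WT Dox+ cells and 7.52 and 7.46 in WT Dox- cells, with the Sg Dox+ arrays alone above 9 and an interaction of 2.42 ± 0.46 (adjusted p = 0.0031). Ndufb5 and Ndufb9, subunits of complex I, had 2.14 and 2.08 and Atp5e, of ATP synthase, 2.00. Of 30 respiratory complex assembly factors, 8 were higher and 8 lower, against 29.3% and 33.6% at like level (median 0.26, between -0.27 and 0.45 across the 6 scalings), with Cox20 at 1.70 and Ttc19 at -1.65.

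Genes that express the mitochondrial genome went both ways. Of 26 tested, 13 were lower and 8 higher, against 32.9% and 29% at like level, with 9 undetected on both Sg Dox+ arrays (median -0.78, between -1.25 and -0.43 across the 6 scalings, -0.32 with undetected values at their floor, 0.27 over members detected on all 8 arrays). Among the 16 detected on all 8 arrays, 8 were higher and 6 lower. Polrmt, the mitochondrial RNA polymerase, fell by 1.31 in Sg and rose by 1.35 in WT cells, for an interaction of -2.66 ± 0.18 (adjusted p = 0.000164). Tefm, its elongation factor, was undetected on both Sg Dox+ arrays and lower by at least 1.48. Of 70 mitochondrial ribosomal proteins, 18 were higher and 24 lower, against 29.1% and 34.3% at like level (median -0.16, between -0.63 and 0.08 across the 6 scalings), from Mrps31 at -2.30 to Mrpl42 at 1.77.

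Cytosolic ribosomal protein genes were higher or did not pass. Of 55 tested, 14 were higher, 0 lower and 41 did not pass, against 21% higher and 26.8% lower at like level, with a median of 0.26 (between 0.16 and 1.45 across the 6 scalings) and 0.24 relative to like level. The upper end of that range is from median centring, under which the highest bin of all genes had a median of 1.07. Rpl4 had 11.92 and 12.00 in Sg Dox+ cells, 11.38 and 11.28 in Sg Dox- cells, 10.97 and 10.88 in WT Dox+ cells and 11.80 and 11.83 in WT Dox- cells and an interaction of 1.51 ± 0.16 (adjusted p = 0.000309), with the WT Dox+ arrays lowest. Rpl22 had 1.32, Rpl21 1.37 and Rps3a1 1.35; ribosomal protein genes have many processed pseudogenes that a probe may share. Of 51 genes of ribosome biogenesis and RNA polymerase I, 6 were higher and 13 lower, against 29.5% and 34% at like level (median -0.30, between -0.83 and -0.12 across the 6 scalings), with Nle1, a factor of large subunit assembly, at 2.04 and Polr1e, a polymerase I subunit, at -1.79. Of 34 translation factors, 7 were higher and 8 lower, against 24.5% and 30.5% at like level (median 0.04, between -0.11 and 0.95 across the 6 scalings, -0.04 over members detected on all 8 arrays, 0.03 and 0.07 without 1 or the other Sg Dox+ array), with Eif4b at 2.11 and Eif6 at -1.49.

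RNA processing and transport genes were divided. Of 29 nuclear pore and transport genes, 13 were higher and 6 lower, against 28.8% and 32.6% at like level (median 0.63, between 0.15 and 0.87 across the 6 scalings, 0.74 with undetected values at their floor). Ran, the GTPase that drives nuclear transport, had 2.03, the importins Kpnb1 and Kpna3 1.89 and 1.84, and the messenger RNA export factor Rae1 -1.87. Of 48 spliceosome and splicing factor genes, 15 were higher and 16 lower, against 27% and 32.4% at like level (median 0.06, between -0.25 and 0.46 across the 6 scalings, -0.07 and 0.04 without 1 or the other Sg Dox+ array), with Hnrnpa1 at 2.21 and Prpf38a at -1.69.

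Lysosome genes were higher and autophagy genes lower. Of 43 lysosome genes tested, 22 were higher, 7 lower and 14 did not pass, against 27.7% higher and 32.2% lower at like level, with a median of 0.69 (between 0.49 and 1.37 across the 6 scalings) and 0.73 relative to like level. In Sg cells 32 rose and 1 fell, and in WT cells 16 rose and 5 fell. Lipa, lysosomal acid lipase, had 10.77 and 10.54 in Sg Dox+ cells, 9.10 and 9.17 in Sg Dox- cells, 8.26 and 8.38 in WT Dox+ cells and 9.11 and 8.84 in WT Dox- cells. The Sg Dox+ arrays stood above all others, for an interaction of 2.17 ± 0.20 (adjusted p = 0.000223). Naglu, which degrades heparan sulfate, had 1.94, Ctsc, a cathepsin, 1.73 and Man2b1, lysosomal mannosidase, -1.92. Of 25 autophagy genes, 13 were lower and 2 higher, against 35.1% and 29.5% at like level (median -0.63, between -0.82 and -0.10 across the 6 scalings). Atg101, of the kinase complex that starts autophagy, had 9.21 and 9.18 in Sg Dox+ cells, 10.09 and 10.12 in Sg Dox- cells, 11.54 and 11.60 in WT Dox+ cells and 10.06 and 10.22 in WT Dox- cells, with Sg Dox+ lowest and WT Dox+ highest, and an interaction of -2.34 ± 0.16 (adjusted p = 0.000164). Ulk1, the kinase of that complex, had -1.97 and Uvrag, of the lipid kinase complex, -1.91.

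NRF2 drives antioxidant genes. Of 34 tested, 15 were higher and 5 lower, against 25.7% and 31.9% at like level, with a median of 0.34 (between 0.33 and 1.26 across the 6 scalings). Cat, catalase, had 10.05 and 9.62 in Sg Dox+ cells, 8.75 and 8.37 in Sg Dox- cells, 7.74 and 7.59 in WT Dox+ cells and 8.57 and 8.33 in WT Dox- cells, with the Sg Dox+ arrays highest and an interaction of 2.06 ± 0.28 (adjusted p = 0.000723), and Txn1, thioredoxin, had 1.69. Among the lower members were Hmox1, heme oxygenase, at -2.45, and Srxn1, sulfiredoxin, at -2.03. Of 30 heat shock proteins and chaperonins, 8 were higher and 7 lower, against 24.5% and 29.8% at like level (median 0.01, between -0.03 and 0.83 across the 6 scalings, 0.16 with undetected values at their floor, -0.06 over members detected on all 8 arrays, -0.08 and 0.10 without 1 or the other Sg Dox+ array). The chaperone genes Hspa1a, Hspa2 and Dnajb1 had -2.34, -2.68 and -2.46, and Hsp90aa1 had 1.95. Of 32 proteasome subunits, 6 were higher and 10 lower, against 24.3% and 29.1% at like level (median 0.03, between -0.09 and 0.91 across the 6 scalings), with Psmd11 at 2.05 and Psmd5 at -1.35. Of 25 glycolysis and hypoxia genes, 6 were higher and 7 lower, against 27.9% and 32.5% at like level (median 0.12, between -0.32 and 0.39 across the 6 scalings, -0.06 and 0.13 without 1 or the other Sg Dox+ array), with Hk2, hexokinase 2, at -1.98 and Egln3, an oxygen sensor, at -1.65.

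Markers of cell types were read to check the label of embryonic fibroblast and to see what else the cultures held. Signal was summed over short lists of defining markers, and for cell types other than fibroblasts and skeletal muscle the interaction was also counted over longer gene lists that contain them. Counts of the short lists are to be read beside all genes tested, of which 26.6% were higher and 32.5% lower. Of 11 fibroblast markers tested, 8 were higher and 0 lower, against 26.2% and 33.9% at like level (median 0.94, between 0.53 and 1.62 across the 6 scalings, 1.10 with undetected values at their floor), and 1 of 12, Postn, was undetected on all arrays. The log2 of their summed signal was 16.06 to 16.10 in Sg Dox+ cells, 15.92 to 15.93 in Sg Dox- cells, 15.76 to 15.82 in WT Dox+ cells and 16.05 to 16.06 in WT Dox- cells. Macrophage markers on the array numbered 10 of 12, of which 9 were tested, 5 higher and 0 lower. The same sum over those on the array was 11.87 to 11.88 in Sg Dox+ cells, 10.85 to 10.92 in Sg Dox- cells, 13.19 to 13.27 in WT Dox+ cells and 13.07 to 13.08 in WT Dox- cells. In the longer macrophage list of 11 genes tested, 6 were higher in the interaction and 0 lower, against 26.1% and 30.3% at like level (median 0.91, between 0.36 and 1.24 across the 6 scalings), with C1qc, a complement subunit, at 2.04, Fcer1g, an Fc receptor chain, at 1.59 and Lyz2, lysozyme, at 0.94, or 2.27 from another probe.

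Epithelial and mesothelial markers on the array numbered 7 of 8, of which 6 were tested, 4 higher and 1 lower. The sum over those on the array was 9.37 to 9.54 in Sg Dox+ cells, 8.27 to 8.39 in Sg Dox- cells, 11.30 to 11.41 in WT Dox+ cells and 11.07 to 11.10 in WT Dox- cells, and Cdh1 was undetected on all arrays. In the longer list of 10 genes tested, 6 were higher and 2 lower, against 23.4% and 29.6% at like level (median 1.22, between 0.54 and 1.51 across the 6 scalings, 0.98 with undetected values at their floor), with Upk1b, a uroplakin of mesothelium, at 1.59. Upk3b, another, was undetected in Sg Dox- cells and higher by at least 1.79, although 2 other probes gave 0.83 and 0.37 and did not pass. Of 7 neural markers 3 were tested, 2 higher and 0 lower. The sum over all 7 was 11.71 to 11.97 in Sg Dox+ cells and 10.64 to 10.77 in Sg Dox- cells. In WT cells it was 11.003 to 11.370 with doxorubicin and 10.05 to 10.15 without. The neural sum thus rose by a similar amount in both genotypes, unlike the genes called higher, and its interaction was not tested. Of 7 genes of the longer neural list, 4 were higher and 0 lower, against 25.5% and 34.7% at like level (median 1.21, between 0.61 and 1.32 across the 6 scalings), with Stmn2, a tubulin-binding protein of neurons, at 2.30 and Ncam1 at 1.43, and the defining markers Tubb3, Sox2, Gfap and Snap25 were undetected on all arrays. Of 7 endothelial markers 1 was tested and did not pass, with a sum of 7.98 to 8.11 in Sg Dox+ cells, 8.12 to 8.23 in Sg Dox- cells, 8.52 to 8.59 in WT Dox+ cells and 8.64 to 8.65 in WT Dox- cells. Of 5 tested genes of the longer endothelial list, 1 was higher and 1 lower, against 27.9% and 29.6% at like level (median 0.21, between -0.38 and 0.33 across the 6 scalings), and Pecam1, Cdh5, Kdr, Tie1 and Vwf were undetected on all arrays. Of 5 skeletal muscle markers 2 were tested and both were higher, against 26.6% higher over all genes tested, and 2 genes are few. Myod1 and Ttn were undetected on all arrays. Their sum was 12.17 to 12.49 in Sg Dox+ cells, 11.68 to 11.87 in Sg Dox- cells, 11.66 to 11.78 in WT Dox+ cells and 12.66 to 12.85 in WT Dox- cells. Lysosome and class I genes were higher in the interaction, as macrophage markers were. The summed macrophage signal itself was lower in both Sg groups than in both WT groups. The part of macrophage, mesothelial, neural and skeletal muscle cells in any of these results was not tested.

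The genes with the most extreme interaction among those detected on all 8 arrays belonged to many functions. The highest was Angptl7, a secreted angiopoietin-like protein. It had 9.39 and 9.64 in Sg Dox+ cells, 7.78 and 7.85 in Sg Dox- cells, 6.37 and 6.84 in WT Dox+ cells and 9.37 and 9.65 in WT Dox- cells, a rise of 1.70 in Sg and a fall by 2.90 in WT cells, and an interaction of 4.60 ± 0.27 (adjusted p = 0.000137). Next came Nfib, a transcription factor of lung and brain development, at 3.79, Prss35 at 3.53, Rbms3, an RNA-binding protein, at 3.40 and Mfap5 at 3.36, followed by Rnu6, Aldh1a7, an aldehyde dehydrogenase, at 3.32 and Mylk, given above. Tmed2, a cargo receptor of secretory vesicles, had 3.20, Lsp1, an actin-binding protein of leukocytes, 3.08 and Gdf10, a TGF-beta family ligand, 3.06.

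After Hey1, the lowest was Btbd11, an ankyrin repeat protein. It had 8.06 and 8.07 in Sg Dox+ cells, 8.67 and 8.51 in Sg Dox- cells, 10.62 and 10.61 in WT Dox+ cells and 7.68 and 7.68 in WT Dox- cells; the WT Dox+ arrays stood far above the other 6, and the interaction was -3.45 ± 0.16 (adjusted p = 0.00011). Nudt22 had -3.44, Slco4a1, an organic anion transporter, -3.13, Ddit4l, an inhibitor of mTORC1, -2.98 and Acaa1b, a peroxisomal thiolase, -2.98. Spon2 had -2.95, Bet1l -2.89, Hyal1, a hyaluronidase, -2.85 and Arhgef4 and Rap1gap2, regulators of small GTPases, -2.85 and -2.84. Each of the genes of this paragraph so far rose in WT cells, by 4.55 for Hyal1 and 3.95 for Arhgef4. Among genes undetected on both Sg Dox+ arrays and detected on the other 6, Pid1, an inhibitor of insulin signalling, was lower by at least 3.22, Snx33 by at least 2.49 and Glis1 by at least 2.29.

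Promoter motifs were compared with the called groups as a description. A RefSeq promoter of 300 bases was matched for 7017 of 8625 named genes tested, and 13 motifs were searched on both strands. The p53 decamer stood in 43.5% of 23 matched arrest and feedback targets, in 10% of 10 matched death targets and in 8.65% of all matched genes. The AGGTCA motif of nuclear receptors stood in 41.7% of 12 matched clock genes and in 14.6% of all matched genes, and the E-box CACGTG in 37.8% of 37 matched lysosome genes and 12% of all. Lists chosen for other functions had like shares, with AGGTCA in 41.7% of 12 Hox genes and 42.9% of 14 chemokines and cytokines, and CACGTG in 36% of 25 translation factors. The E2F motif TTTCCCGC stood in 20.6% of 34 replication genes and 2.27% of all. It also stood in 16.7% of 18 G1 cyclins, kinases and inhibitors and 16.1% of 31 DNA repair and checkpoint genes, but in 0% of 24 mitotic genes. The p53 decamer stood in 22.7% of 22 interferon-stimulated genes and in 0% of the 31 DNA repair and checkpoint genes. AGGTCA stood in 13.5% of 2310 lower and 15.3% of 1835 higher genes, TGACGTCA in 3.94% and 2.72%, and the p53 decamer in 8.96% and 8.34%. A match is a description of these letters and shows no binding.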

How the data were processed

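RNA of 8 Illumina bead arrays (4 groups of 2, Cy3) was analysed. The deposited non-normalized table holds bead intensity on a linear scale for 25697 probes, and whether background was subtracted is not stated. The authors' deposited normalized table and the value table hold the same log2 values (largest difference 0), which quantile normalization of the log2 intensity without background correction gave within 5.1e-09. Genome build and software: not given in the sources used here. Intensities were background corrected with limma 3.58.1 (nec, R 4.3.3, offset 16) on 1114 control rows of the table, after 10 bright ones were left out, and quantile normalized on the log2 scale. The table does not name the type of its 1124 control rows, which were read as negative controls. Probes with a detection p below 0.01 on 2 or more of the 8 arrays were kept (12362), and the brightest probe stood for a gene (9340, of which 8625 have a symbol). Of all probes, 23978 had 1 symbol, 0 several and 1719 none, and 23962 matched a current gene.

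limma fitted 1 mean per group on all 8 arrays (4 residual and 3.44 prior degrees of freedom), with two-sided tests and Benjamini-Hochberg adjustment over all 9340 genes at 0.05; SE is the moderated standard error. On simulated data with 200 changed genes of 9340, the interaction test recovered 48% at a log2 change of 1 and 99% at 2, and 7.55% of its calls were false. The simulation gave a gene the same spread in all 4 groups. In the data 59.2% of genes were called and the Sg Dox+ arrays differed more, so these rates may not hold there. Where a probe was undetected on both arrays of a group, "at least" gives the fold against the higher of the lowest detected signal and its own value on each array, in log2 units. The number of arrays limits the precision. Same-numbered arrays did not deviate together (correlations of -0.03 to 0.03), and no label pairs them, so the numbers do not pair the arrays.

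Genes to name were the 12 highest and 12 lowest passing genes detected on all 8 arrays and the 6 lowest bounds. Added to them were up to 6 passing members of each list with the largest interaction and up to 2 nearest to 0. A fixed set of p53, immediate early and clock genes completed the 490 candidates. The text names 242 of these, 240 of them passing, so most members nearest to 0 are left out. Members and lists were chosen with earlier results of these data known, and lists are described without a test. Lists of fewer than 5 tested members were left out. Promoter sequences are from RefSeq (GRCm38.p6). Alternatives were 6 scalings, other detection filters, probe means per gene, a trended variance with robust estimates, a replicate block, a fold of at least 1.5, each array left out, an offset by untreated level and genes detected on both Sg Dox+ arrays. Some genes are not analysed here.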

Additional observations from a re-analysis of the deposited data

Results flagged for a closer look

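The interaction tests whether the doxorubicin effect differs between the genotypes, and all of its calls are differences of that kind: 2489 genes were higher and 3036 lower. In 496 genes the effect fell in Sg and rose in WT cells, each past the test (median interaction -1.76). In 669 genes it rose in Sg and fell in WT cells (median interaction 1.64). Of the 240 named genes that passed, 102 had such opposite effects, against the 496 and 669 among all 5525 called genes. Most named genes were chosen for a large interaction, so their share is not that of all calls. Among the 102 were Cdkn1a, Mdm2, Fas, Egr1, Id1 and Polrmt, which fell in Sg cells. Tars, Sc5d, Mfap5, Lum, Cat and Angptl7, also among them, rose in Sg cells.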

How the results depend on the processing

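Over the alternatives, 2489 higher and 3036 lower calls became 1565 and 3914 with no normalization between arrays, and 1175 and 1698 when a change of at least 1.5-fold was tested. Leaving out each array in turn kept the median interaction over all genes between -0.11 and -0.09. The fit with a replicate block gave 2429 higher and 2984 lower and changed no call among named genes. Genes detected on both Sg Dox+ arrays, an alternative chosen after the data were seen, gave 2509 higher and 2190 lower of 6901. Subtracting the median of genes of like untreated level gave 2773 higher and 2749 lower. Against the reported calls, 22 genes were called in the opposite direction under median centring and at most 2 under any other alternative. Of 240 named genes that passed, 223 kept their call and direction under every alternative that gave a value. Most of these genes were named for a large interaction, so this share does not stand for all calls. With no normalization between arrays, 1400 of all 2489 higher and 2900 of all 3036 lower calls were kept. With no normalization between arrays 10 named genes lost their call, and with the 1.5-fold test 13 did. Reversed values were Ccng1 0.24, Ccn2 0.14, Rora 0.23 and Rrm2b 0.12 under median centring, Rora 0.0172 under cyclic loess, and Rrm2b 0.0415 without background correction, 0.0412 in the authors' deposited table and 0.0852 relative to like level. Rrm2b ranged between -0.13 and 0.12 when each array was left out. The cause of these changes was not tested. Leaving out 1 array leaves its group with a lone array, which is assumed to vary like the other groups. The Sg Dox+ arrays differed most from each other, so without 1 of them the widest spread goes unmeasured. Low signal on the Sg Dox+ arrays limits 1763 genes to a bound there.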

Other observations

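Rnu6, which encodes the U6 small nuclear RNA of the spliceosome, had a log2 signal of 15.87 and 15.94 in Sg Dox+ cells, 12.36 and 12.42 in Sg Dox- cells, 12.61 and 12.65 in WT Dox+ cells and 12.43 and 12.50 in WT Dox- cells. Both Sg Dox+ arrays stood above the other 6, and the limma interaction was 3.35 ± 0.16 (adjusted p = 0.00011). U6 is made by RNA polymerase III and carries no long poly(A) tail.

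Genes with several detected probes allowed a second reading. The count was limited to genes called in the interaction by the probe used. Of 1858 other detected probes of 1356 such genes, 1654 (89.0%) had the sign of the probe used, and 47 were called in the opposite direction. Among those other probes that were detected on all 8 arrays, 91.5% of 1060 probes of 827 called genes had the same sign, and 27 were called in the opposite direction.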
